A study of Mus musculus with 18 samples.

Results

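Genes lost within the first day of differentiation are those that mouse embryonic stem cells (mESCs) expressed before differentiation and whose transcripts were almost gone 1 day after it began. They were chosen on the time course itself. A gene had to have a mean of at least 10 TPM (transcripts per 1000000, a level scaled for transcript length and library total) at day 0, and a mean of 12.5% of that or less at day 1, at day 2 and at day 3. Of 24369 genes in the deposited table, 8298 reached 10 TPM at day 0 and 44 of these (0.530%) met the condition on the later days. The core naive factors were then left out by name, which removed 7 of the 44 (*Esrrb*, *Klf4*, *Nr5a2*, *Prdm14*, *Tbx3*, *Tcl1* and *Tfcp2l1*), and 37 genes remained.

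The time course comprised 12 libraries of wild-type Rex1GFPd2-Cas9 mESCs, with 3 replicates each before differentiation (day 0) and on days 1, 2 and 3 of differentiation. A second set held 6 libraries of sorted GFP+ cells that carried the same reporter and Cas9, 2 each of wild-type, *Nprl2* KO (*Nprl2*-/-) and *Tsc2* KO (*Tsc2*-/-) genotype. All of these cells derive from the E14 line, have Cas9 at Rosa26 and report the Rex1 gene (*Zfp42*) by a destabilised GFP, and each KO line is a clone with an exon deleted on both alleles. *Nprl2* belongs to Gator1 and *Tsc2* to the Tsc complex, both of which restrain the growth kinase mTORC1. The study's usual culture is serum with LIF on feeder cells, with a medium of Mek and Gsk3 inhibitors used where indicated. No other medium than serum with LIF is indicated for the GFP+ cells, and that of the day 0 cells is not given in the sources used here. These sources also do not say whether replicates were separate cultures, so p-values measure the spread between these libraries, which may be technical.

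Naive pluripotency is the state of the epiblast before implantation, and it is held in culture by LIF, which acts through *Stat3*, and by inhibitors of Mek and Gsk3. When these signals are withdrawn, the naive transcription factors are shut down first and the cells pass through a formative state before they take up a lineage. Besides those factors, naive mESCs express many genes for adhesion, signalling, transport and metabolism. Such genes are among those described here, beside 7 for transcription and chromatin and 13 that share no role.

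The estimated counts summed to 12503005 to 15305054 in a time-course library and to 8610357 to 13780861 in a GFP+ library. *Nprl2* was at 8.09 and 8.65 TPM in the *Nprl2* KO libraries against 16.1 and 17.0 TPM in wild-type, and *Tsc2* was at 18.8 and 20.3 TPM in the *Tsc2* KO libraries against 45.0 and 44.9 TPM in wild-type. The 6 general pluripotency markers summed to between 2182 and 3800 TPM in all 18 libraries, with *Pou5f1* the largest part. The sum hides changes in both directions. From day 0 to day 3 the mean of *Pou5f1* went from 1845 to 1233 TPM and that of *Sall4* from 132 to 76.4 TPM. *Sox2* went from 456 to 56.1 TPM and *Tdgf1* from 608 to 46.6 TPM. *Lin28a* rose from 196 to 443 TPM and *Utf1* from 411 to 521 TPM. The 12 fibroblast markers, which would mark feeder cells, summed to between 18.4 and 55.9 TPM in the time course and between 53.2 and 190 TPM in GFP+ cells. The highest of them on average was *Col5a1* at day 0 (6.71 TPM), *Thy1* at days 2 and 3 (21.8 and 30.1 TPM) and *Col1a1* in each GFP+ genotype (37.7 to 61.4 TPM). In bulk libraries, fewer cells of a type and less RNA per cell cannot be told apart.

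The 37 genes had a mean of between 10.9 and 818 TPM at day 0, with a median of 30.5 TPM. By the rule they had to fall, so the size of the fall is a description without a test. The median fold of day 0 over the later day was 21.1 at day 1, 21.5 at day 2 and 23.4 at day 3. At day 1, 13 of the 37 were under 1 TPM, against 17 at day 2 and 16 at day 3. The replicates of day 0 differed by a coefficient of variation of between 1.98% and 33.8% (median 11.4%). Even the lowest day 0 library was at least 5.90 times the highest later library for each of the 37 genes.

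**Figure D1:**
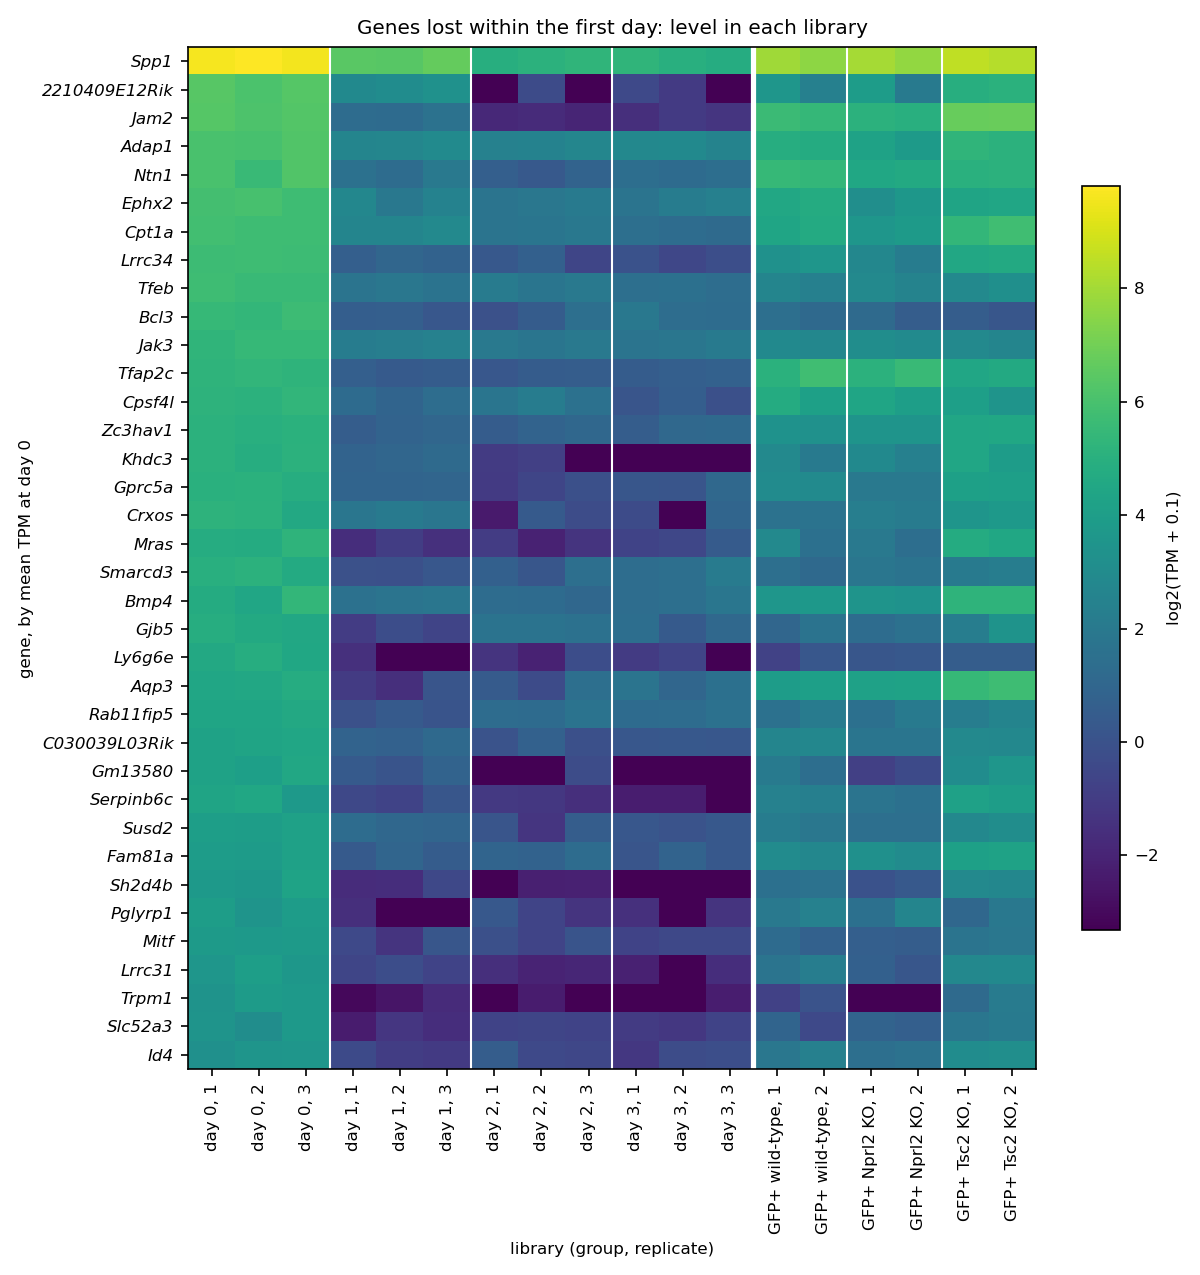
Level of 36 of the 37 genes in each of the 18 libraries, as log2(TPM + 0.1) by colour, with genes in rows ordered by mean TPM at day 0 and libraries in columns by group and replicate. The 3 day 0 columns are the brightest of the time course in each row, and the 6 GFP+ columns lie between them and the later days for most genes.

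The genes closest to the limit show how the list was bounded. Just inside it were *Fam81a*, whose highest later day was at 12.31% of day 0, *Susd2* at 12.31% and the fatty acid enzyme gene *Cpt1a* at 12.01%. Just outside were *Itpka* at 12.6%, *Klf5* at 12.8% and the basement membrane gene *Nid1* at 13.2%. The day 2 libraries of *Fam81a*, which set its value, lay between 1.67 and 2.43 TPM.

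Ligands and signalling genes were among the most abundant. *Spp1*, which encodes the secreted glycoprotein osteopontin, was at 800, 898 and 755 TPM at day 0. It was at 88.6, 85.2 and 104 TPM at day 1 and at 38.4, 30.8 and 28.4 TPM at day 3. *Spp1* was thus the most abundant of the 37 genes at day 0 and on each later day, and its level at day 2, 29.89, 34.99 and 37.97 TPM, was already that of day 3. *Ntn1*, which encodes the secreted guidance cue netrin-1, went from 65.7, 48.2 and 76.0 TPM at day 0 to 2.87, 2.43 and 3.81 TPM at day 1. *Bmp4*, a BMP ligand, went from 27.4, 21.9 and 41.7 TPM to 2.86, 3.21 and 3.53 TPM, and its day 0 replicates had the widest spread of the 37 genes. In the cell, *Jak3*, a kinase that signals from cytokine receptors, went from 38.1, 44.0 and 44.5 TPM to 4.50, 4.81 and 5.40 TPM. *Mras*, a small GTPase of the Ras family, went from 28.2, 26.7 and 36.7 TPM to 0.224, 0.424 and 0.251 TPM, a 102-fold difference of the means. *Adap1*, a GTPase-activating protein for Arf6, was at 68.2 ± 6.96 TPM (SD, n = 3) at day 0 and 6.76 ± 0.881 TPM (SD, n = 3) at day 1.

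Genes for cell junctions and the cell surface had some of the largest folds. The gap junction gene *Gjb5* (connexin 31.1) went from 25.8 ± 3.03 TPM (SD, n = 3) to 0.406, 0.747 and 0.547 TPM, and stood at 3.09, 3.05 and 2.84 TPM at day 2. *Jam2*, a junctional adhesion molecule, went from 81.0, 69.7 and 78.8 TPM at day 0 to 2.43, 2.34 and 3.02 TPM at day 1 and to 0.185, 0.207 and 0.155 TPM at day 2. The means of *Jam2* at day 0 and day 2 differ 420-fold, which is the largest fold at day 2 among the 37 genes. *Ly6g6e*, of the Ly6 family, was at 24.2, 28.6 and 22.3 TPM at day 0 and at 0.259, 0 and 0 TPM at day 1, where its estimated counts were 2, 0 and 0.

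**Figure D2:**
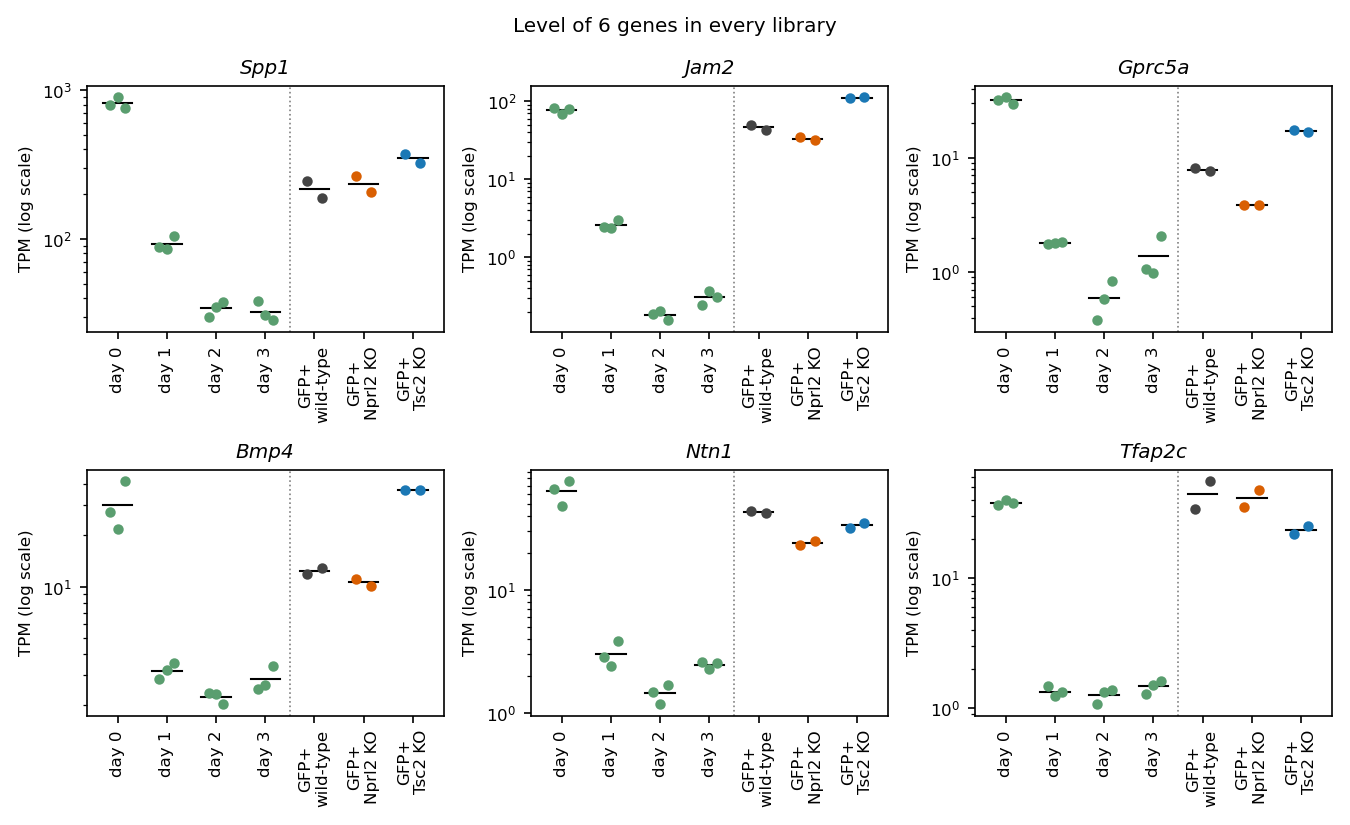
TPM on a log scale in every library for *Spp1*, *Jam2*, *Gprc5a*, *Bmp4*, *Ntn1* and *Tfap2c*, with points for libraries and black lines for group means; the dotted line separates the time course from the GFP+ cells. All 6 genes are lower at day 1 than at day 0, and *Tfap2c* in wild-type GFP+ cells (33.7 and 55.7 TPM), a separate set, is near its day 0 level.

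Transcription and chromatin genes outside the core naive network made up 7 of the 37. *Tfap2c* encodes the factor AP-2 gamma, which is known to act at enhancers in naive cells and in germ cell precursors. It was at 36.6, 40.0 and 37.7 TPM at day 0 and at 1.47, 1.23 and 1.33 TPM at day 1. *Tfeb* and *Mitf* belong to the MiT/TFE family of bHLH leucine zipper factors, which control lysosomal genes and, for *Mitf*, melanocyte genes. *Tfeb* went from 52.2, 47.8 and 47.5 TPM at day 0 to 3.24, 3.64 and 3.15 TPM at day 1, and *Mitf* from 14.1, 13.6 and 14.2 TPM to 0.648, 0.296 and 1.04 TPM. Their relative *Tfe3*, which is not among the 37, did not follow them, with 99.9, 91.8 and 95.4 TPM at day 0, 160, 168 and 164 TPM at day 1 and 90.1, 95.3 and 94.1 TPM at day 3. *Bcl3*, an atypical I kappa B protein and a known *Stat3* target in mESCs, went from 43.9, 41.4 and 52.1 TPM to 1.42, 1.45 and 1.09 TPM. Another *Stat3* target, *Socs3*, narrowly missed the rule, because it went from 60.8, 54.8 and 79.2 TPM at day 0 to 2.18, 1.78 and 2.17 TPM at day 1 but stood at 11.5, 7.24 and 7.65 TPM at day 3. In a list of 12 genes of the LIF and *Stat3* pathway, only *Bcl3* and *Socs3* were at or below 12.5% of day 0 at day 1, and the median was 39.0%. In that list *Pim1* kept 57.1% of day 0 at day 1, *Gbx2* was at 229.7% at day 1 and *Junb* at 197.6% at day 3. The remaining genes of this kind were *Crxos* (a homeobox gene), *Smarcd3* (a subunit of BAF chromatin remodelling complexes) and *Id4* (an inhibitor of bHLH factors), with day 0 means of 31.2, 30.4 and 10.9 TPM.

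Transport and metabolism were represented by 5 genes. *Cpt1a*, the enzyme that admits long-chain fatty acids to mitochondria, was at 56.8, 52.3 and 53.3 TPM at day 0 and at 6.15, 6.09 and 7.26 TPM at day 1. *Ephx2*, the soluble epoxide hydrolase, went from 59.1, 62.7 and 53.4 TPM to 6.65, 3.66 and 5.61 TPM. The folds of these enzymes at day 1, 8.33 and 11.0, were lower than those of the 3 genes for channels and carriers. *Aqp3*, a water and glycerol channel, went from 24.4 ± 3.49 TPM (SD, n = 3) at day 0 to 0.541 ± 0.398 TPM at day 1, a 45.1-fold difference. The riboflavin transporter gene *Slc52a3* went from 11.0 ± 2.63 to 0.217 ± 0.111 TPM (SD, n = 3 each), and the cation channel gene *Trpm1* from 12.8 ± 1.89 to 0.0978 ± 0.0934 TPM (SD, n = 3 each), where day 1 held 1, 2 and 4 estimated counts.

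The other 13 genes share no role. *2210409E12Rik*, a transcribed pseudogene in RefSeq, was the third most abundant of the 37, at 83.4, 67.1 and 81.2 TPM at day 0. It kept 7.51, 8.31 and 9.73 TPM at day 1 and was at or below 0.692 TPM in all 6 libraries of days 2 and 3. *Zc3hav1*, the antiviral zinc finger protein ZAP, went from 34.2, 31.3 and 33.7 TPM at day 0 to 1.37, 1.71 and 1.91 TPM at day 1. *Khdc3*, a gene of the maternal complex of oocytes and early embryos, was at 34.8, 28.5 and 35.1 TPM at day 0 and 1.73, 1.93 and 2.21 TPM at day 1. It was not detected in any day 3 library, where a count of 0 leaves room for up to 3 counts, or 0.250 to 0.287 TPM. The lncRNA gene *Gm13580* and *Sh2d4b* were also at 0 counts in all 3 day 3 libraries, which allows up to 1.08 and 0.387 TPM, for counting error only. *Lrrc34* and *Lrrc31*, which lie on either side of *Lrriq4* on chromosome 3, were at 52.4 ± 1.41 and 13.6 ± 2.44 TPM (SD, n = 3 each) at day 0, and *Lrriq4* itself was at 5.60, 6.39 and 5.15 TPM. At day 1 *Lrrc34* was at 1.66 ± 0.228 TPM, *Lrrc31* at 0.623 ± 0.120 TPM (SD, n = 3 each) and *Lrriq4* at 2.12, 2.54 and 2.24 TPM. *Gm13580* lies beside *Ly75*, which went from 59.3, 48.4 and 69.3 TPM at day 0 to 5.88, 4.97 and 5.57 TPM at day 1, and no 2 of the 37 genes are direct neighbours in the RefSeq gene order.

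After day 1 the genes went different ways, as did all genes with at least 10 TPM at day 0. In 16 of the 37 (43.2%), each day 3 library was below each day 1 library, against 36.0% of all genes with at least 10 TPM at day 0. In 7 (18.9%), each day 3 library was above each day 1 library, against 40.5% of those genes, and in the other 14 the libraries overlapped. The 7 were *Aqp3*, *Bcl3*, *Gjb5*, *Mras*, *Rab11fip5*, *Slc52a3* and *Smarcd3*. *Aqp3* was at 0.392, 0.240 and 0.992 TPM at day 1 and at 3.18, 1.94 and 2.74 TPM at day 3. *Smarcd3* was at 0.872, 0.809 and 1.07 TPM and then at 2.49, 2.65 and 4.24 TPM. These differences were small beside that between day 0 and day 1, since both genes stayed under 12.5% of day 0 on average by the rule. Among the 16 that went lower, *Jam2* was at 0.244, 0.374 and 0.311 TPM at day 3, *Serpinb6c* at 0.104, 0.110 and 0 TPM and *Lrrc34* at 0.907, 0.593 and 0.802 TPM. The day 1 and day 3 levels were part of the rule that chose the genes, and these shares carry no test.

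**Figure D3:**
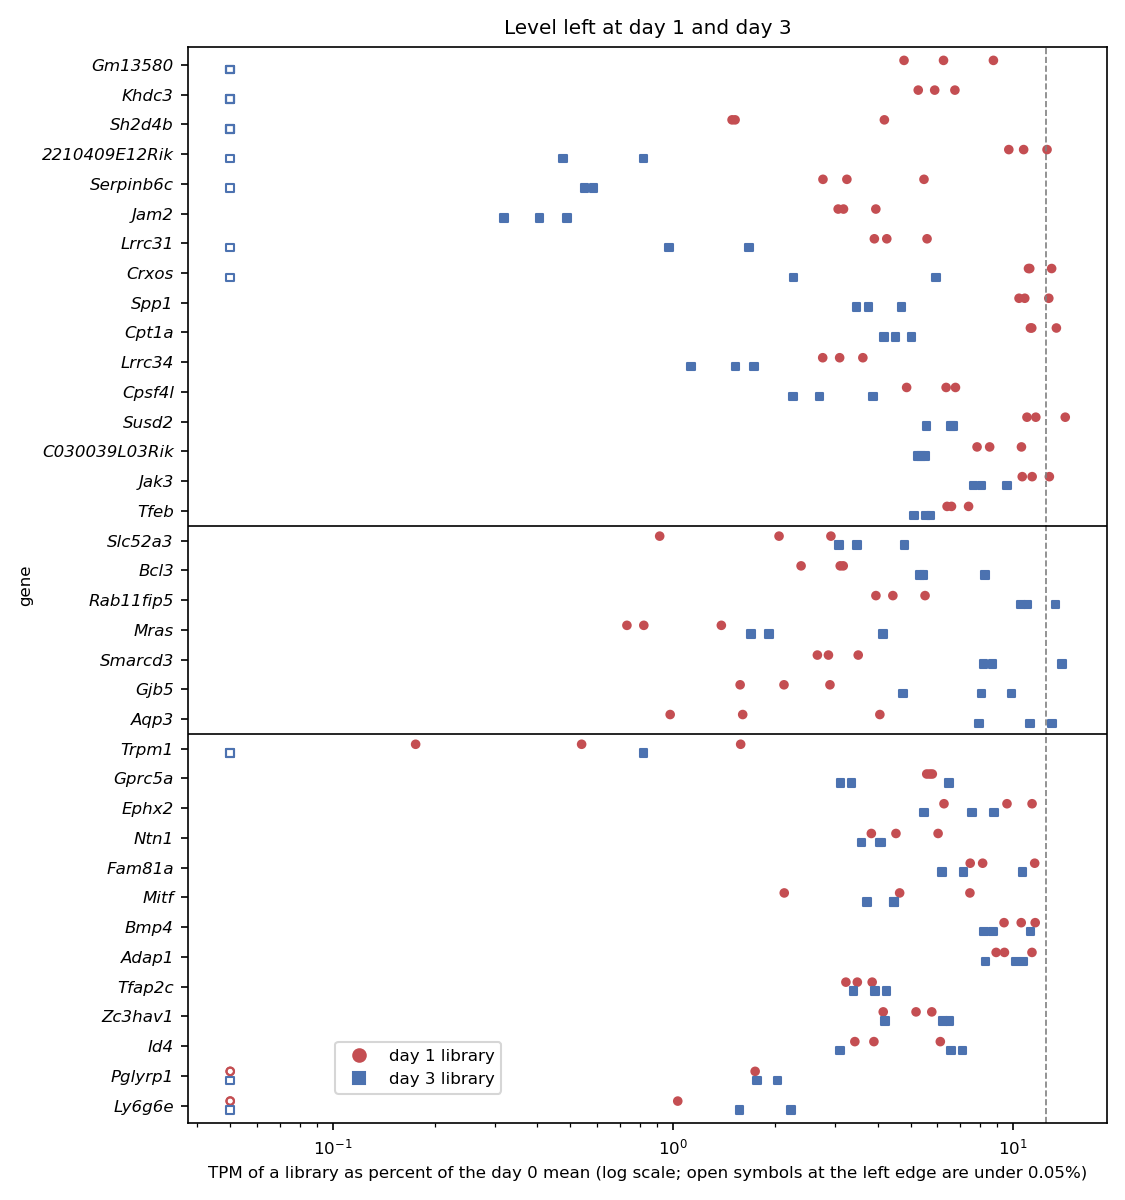
TPM of each day 1 library (circles) and each day 3 library (squares) as a percentage of the day 0 mean on a log scale for 36 of the 37 genes, with open symbols at the left edge for values under 0.05% and a dashed line at 12.5%. From top to bottom the blocks hold the 16 genes lower at day 3 in every library, the 7 higher in every library and 13 of those with overlap.

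Primitive endoderm markers were also lower in sum after day 0. Over 10 markers the sum was 35.001 to 47.61 TPM at day 0 and 10.8 to 20.2 TPM later. *Lama1* made up 34.4, 25.7 and 26.3 TPM of the day 0 sum, while *Gata4* was at 3.97, 4.18 and 2.14 TPM and *Sox17* at 0.933, 1.43 and 0.796 TPM. Other markers went the other way, and *Dab2* had a mean of 1.83 TPM at day 0 and of 6.11 and 5.82 TPM at days 2 and 3. *Amn* and *Cubn* were also higher on average at days 2 and 3 than at day 0, and *Foxa2* at day 3. The part of primitive endoderm cells in the day 0 levels of the 37 genes was not tested.

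Promoters of the genes were compared with all promoters in RefSeq (GRCm38.p6), as windows from 250 bases before to 50 bases after the transcription start. Of the 37 genes, 27 had an entry, with 36 windows. A Stat motif, TTCNNNGAA, was in 3 of the 36 windows (8.33%) and in 8.30% of all 32851 windows. The Klf motif GGGNGTGG was in 6 (16.7%) against 17.6%, the Tcf/Lef motif CTTTGAT in 1 (2.78%) against 3.73%, the octamer ATTTGCAT in 1 (2.78%) against 1.74% and the *Esrrb* motif CAAGGTCA in none against 1.56%. Both strands were searched, and no matches of different motifs overlapped. The windows of the 37 genes had a median of 56.8% G and C, against 56.3% in those of protein-coding genes, and a median of 8.5 against 13 CpG sites. Each share lay near that of all windows, and the lack of a match says only that these letters are not in the window. The 250 bases before the start are given for the genes with a match to the LIF, Wnt or Oct4 motif (Stat, Tcf/Lef and octamer) whose values are described here, in the direction of transcription and with the match in capitals. *Spp1* (chr5:104435942-104436191, plus strand) holds the octamer on the opposite strand, *Mitf* (chr6:97991533-97991782, plus strand) the Tcf/Lef motif, *Gm13580* (chr2:60411275-60411524, plus strand) a Stat motif and *Cpsf4l* (chr11:113710018-113710267, minus strand) 2 Stat motifs. *Crxos* (chr7:15901396-15901645, plus strand) holds a Stat motif.
Spp1: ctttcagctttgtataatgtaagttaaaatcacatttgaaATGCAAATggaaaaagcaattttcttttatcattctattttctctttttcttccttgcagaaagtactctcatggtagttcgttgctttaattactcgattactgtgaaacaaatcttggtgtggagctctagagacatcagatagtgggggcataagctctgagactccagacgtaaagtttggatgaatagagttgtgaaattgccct
Mitf: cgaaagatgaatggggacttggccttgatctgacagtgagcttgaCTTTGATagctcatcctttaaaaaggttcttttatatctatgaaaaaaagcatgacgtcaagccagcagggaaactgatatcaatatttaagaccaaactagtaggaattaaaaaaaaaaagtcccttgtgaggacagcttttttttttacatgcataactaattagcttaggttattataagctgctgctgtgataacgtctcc
Gm13580: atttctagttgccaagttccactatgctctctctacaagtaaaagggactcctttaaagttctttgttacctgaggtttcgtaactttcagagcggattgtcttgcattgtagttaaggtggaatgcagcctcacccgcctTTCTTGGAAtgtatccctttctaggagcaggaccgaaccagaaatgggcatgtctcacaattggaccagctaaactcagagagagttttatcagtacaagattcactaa
Cpsf4l: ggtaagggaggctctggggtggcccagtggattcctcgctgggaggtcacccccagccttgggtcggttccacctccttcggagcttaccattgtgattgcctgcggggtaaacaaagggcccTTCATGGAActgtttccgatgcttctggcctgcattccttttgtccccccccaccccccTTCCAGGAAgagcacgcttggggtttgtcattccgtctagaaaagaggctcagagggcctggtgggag
Crxos: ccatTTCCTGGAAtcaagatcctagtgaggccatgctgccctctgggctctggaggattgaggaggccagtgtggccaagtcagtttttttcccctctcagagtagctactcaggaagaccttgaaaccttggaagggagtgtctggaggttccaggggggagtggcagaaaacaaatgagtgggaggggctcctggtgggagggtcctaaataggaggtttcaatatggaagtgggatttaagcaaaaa

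In wild-type GFP+ cells the 37 genes stood between the levels of day 0 and day 1. The mean of the 2 libraries was a median of 23.9% of day 0 (range 3.19% to 117%), against a median of 99.1% over all genes with at least 10 TPM at day 0. It was above the day 1 mean for 35 of the 37 genes, above the day 0 mean for 1, and at least 10 TPM for 13. The GFP+ libraries did not choose the genes, but day 0 values did, and the culture, the sort and the library preparation cannot be told apart from the difference between these sets. *Tfap2c* was the gene above day 0, with 33.7 and 55.7 TPM. *Ntn1* was at 43.7 and 42.0 TPM (67.7% of day 0), *Aqp3* at 15.01 and 16.96 TPM (65.5%), *Cpsf4l* at 27.3 and 17.6 TPM (60.7%) and *Jam2* at 49.96 and 42.78 TPM (60.6%). Low in these cells were *Ly6g6e* at 0.504 and 1.09 TPM (3.19%), *Bcl3* at 2.64 and 2.15 TPM (5.23%), *Trpm1* at 0.471 and 0.916 TPM (5.43%) and *Smarcd3* at 2.69 and 2.14 TPM (7.95%). *Socs3*, the *Stat3* target that narrowly missed the rule, was as low, at 4.36 and 3.44 TPM (6.005%). The median over the 12 genes of the LIF and *Stat3* pathway was 56.7%, with *Pim1* at 79.9% and *Il6st* at 101%. The fibroblast markers summed to 134 and 190 TPM in these libraries and to at most 27.5 TPM at day 0. The markers of the 2-cell-like state summed to 567 and 902 TPM, against 26.3 to 42.3 TPM at day 0. Those of primitive endoderm summed to 8.891 and 18.01 TPM, against 35.001 to 47.61 TPM at day 0, and *Lama1* was at 17.5% of day 0. Of these endoderm markers only *Dab2* (154%), *Amn* (339%) and *Cubn* were above day 0 on average, all at low levels. The part of these markers' cells in the levels was not tested.

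**Figure D4:**
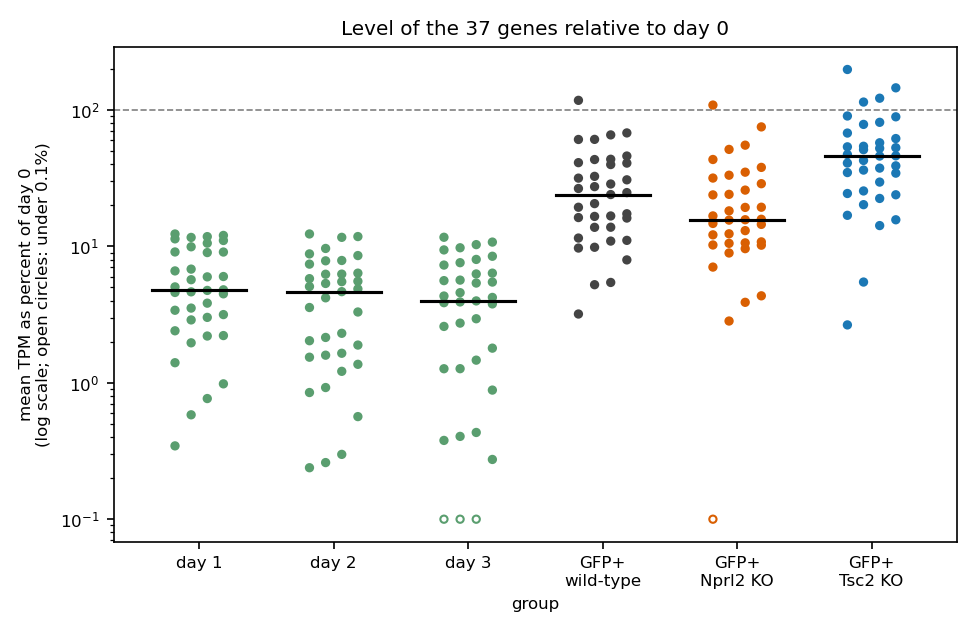
Mean TPM of each of the 37 genes in 6 groups as a percentage of its day 0 mean, on a log scale, with points for genes, black lines for medians, open circles for values under 0.1% and a dashed line at 100%. The medians are 4.75%, 4.65% and 3.98% at days 1, 2 and 3, and 23.9%, 15.7% and 45.8% in wild-type, *Nprl2* KO and *Tsc2* KO GFP+ cells.

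The share of a gene's leading transcript could differ between the sets. One *Tfap2c* transcript held between 58.6% and 63.9% of the gene's TPM at day 0, between 24.4% and 29.1% in wild-type GFP+ cells and between 24.8% and 48.6% in *Tsc2* KO. The leading *Spp1* transcript held between 89.39% and 95.9% of the gene in day 0, wild-type and *Tsc2* KO libraries alike. Other shares differed as much between replicates, since the leading *Mitf* transcript held 0% of the gene in one wild-type GFP+ library and 100% in the other, and that of *C030039L03Rik* 6.20% and 99.5%. These shares rest on how kallisto divides reads between transcripts and were not tested.

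*Nprl2* KO cells had less of 10 of the 37 genes than wild-type GFP+ cells and more of none. Of the 37 genes, 36 passed the filter on low counts and were tested. In the quasi-likelihood test of edgeR, adjusted by the Benjamini-Hochberg method over 13722 genes, 10 of the 36 (27.8%) were lower and 0 higher, against 3.65% and 2.78% of all genes tested. None was higher by DESeq2 or limma either, nor at an unadjusted p under 0.05 in edgeR, where 15 were lower. The median log2 fold change of the 36 was -0.40, against 0.0007 over all genes. They were *Adap1*, *C030039L03Rik* (*Zfp607b* in RefSeq, a zinc finger gene), *Cpt1a*, *Ephx2*, *Gprc5a*, *Jam2*, *Lrrc31*, *Lrrc34*, *Ntn1* and *Trpm1*. *Ephx2* was at 8.89 and 12.3 TPM in *Nprl2* KO and at 23.4 and 27.1 TPM in wild-type (log2 fold change -1.20 ± 0.16 SE, edgeR adjusted p = 0.00133). *Lrrc31* was at 1.55 and 1.06 TPM against 3.19 and 4.58 TPM (log2 fold change -1.56 ± 0.32 SE, edgeR adjusted p = 0.0128). For *Gprc5a*, an orphan receptor induced by retinoic acid, the values were 3.81 and 3.87 TPM against 8.03 and 7.64 TPM (log2 fold change -0.996 ± 0.183 SE, edgeR adjusted p = 0.00717). *Lrrc34* was at 6.58 and 4.44 TPM against 9.89 and 11.7 TPM (log2 fold change -0.95 ± 0.20 SE, edgeR adjusted p = 0.0157). In each of these 4 genes both KO libraries were below both wild-type libraries, as they were for 18 of the 36 genes and for 29.6% of all genes tested.

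*Ntn1* fell with the smallest adjusted p of the 10, from 43.7 and 42.0 TPM in wild-type to 23.0 and 24.9 TPM in *Nprl2* KO (log2 fold change -0.79 ± 0.08 SE, edgeR adjusted p = 0.000112). *Trpm1* had 8 and 12 estimated counts in wild-type and 0 in both *Nprl2* KO libraries (edgeR adjusted p = 0.0181). Set against 3 counts per library, *Trpm1* was at least 4.16-fold higher in wild-type than in *Nprl2* KO. *Gm13580* had 10 and 5 estimated counts in wild-type and 1 and 2 in *Nprl2* KO, which did not pass (edgeR adjusted p = 0.0644), although 3 of 10 alternatives called it (edgeR and limma adjusted p between 0.019 and 0.309). *Trpm1* and *Gm13580* passed the filter on low counts through the *Tsc2* KO libraries, where they were high. With the 4 libraries of this comparison alone neither was tested. DESeq2 gave no adjusted p for either, and limma did not call *Trpm1* (adjusted p = 0.168). The most abundant gene was not called, since *Spp1* was at 264 and 207 TPM in *Nprl2* KO against 244 and 189 TPM in wild-type (edgeR adjusted p = 0.712). Without *Nprl2* KO library 2 only *C030039L03Rik*, *Ephx2* and *Ntn1* of the 10 were called, and without wild-type library 2 the number called was 6, with *Cpt1a*, *Lrrc31*, *Lrrc34* and *Trpm1* lost. It was 9 without wild-type library 1, where *Jam2* was lost, and 8 without *Nprl2* KO library 1, where *Cpt1a* and *Trpm1* were lost. These 3 genes were also the ones called under every alternative fit, with adjusted p values from edgeR, DESeq2 and limma of at most 0.045, 0.0116 and 0.00576.

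*Tsc2* KO cells had more of most of the 37 genes than the same wild-type GFP+ libraries. Of the 36 tested, 24 (66.7%) were higher than in wild-type GFP+ cells and 1 (2.78%) was lower, against 14.9% and 14.2% of all genes tested in the same edgeR fit. The 24 include *Trpm1* and *Gm13580*, which passed the filter on low counts through the *Tsc2* KO libraries, where they were high. The median log2 fold change of the 36 was 0.98, against 0.0048 over all genes. Both *Tsc2* KO libraries were above both wild-type libraries for 29 of the 36 (80.6%) and for 37.6% of all genes tested. In *Tsc2* KO 21 of the 37 genes had a mean of at least 10 TPM and 4 were above their day 0 mean, namely *Aqp3*, *Bmp4*, *Fam81a* and *Jam2*.

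The largest rises were those of *Mras*, *Trpm1*, *2210409E12Rik*, *Serpinb6c* and *Khdc3*. *Mras* was at 27.0 and 22.4 TPM in *Tsc2* KO and at 7.07 and 2.76 TPM in wild-type (log2 fold change 2.26 ± 0.43 SE, edgeR adjusted p = 0.0218). *Trpm1* was at 2.25 and 4.24 TPM against 0.471 and 0.916 TPM (log2 fold change 2.24 ± 0.44 SE, edgeR adjusted p = 0.00368). Its estimated counts were 44 and 88 against 8 and 12, and it passed the filter on low counts through *Tsc2* KO itself. The pseudogene *2210409E12Rik* was at 29.7 and 33.3 TPM against 11.7 and 5.17 TPM (log2 fold change 1.73 ± 0.45 SE, edgeR adjusted p = 0.0133). The wild-type libraries of *Mras* and *2210409E12Rik* stood far apart, and the *Tsc2* KO libraries of all 3 genes were above both. *Serpinb6c*, one of a cluster of related serpin genes whose reads may be shared, was at 18.2 and 15.9 TPM against 5.33 and 5.01 TPM (log2 fold change 1.67 ± 0.21 SE, edgeR adjusted p = 0.00013). Its neighbour *Serpinb6a* was at 116 and 104 TPM against 66.1 and 74.4 TPM (log2 fold change 0.61, edgeR adjusted p = 0.00287). In the time course *Serpinb6a* had means of 68.4 TPM at day 0 and 59.0 TPM at day 1, and sharing of reads was not tested. *Khdc3* was at 22.1 and 15.5 TPM against 7.18 and 4.17 TPM (log2 fold change 1.66 ± 0.28 SE, edgeR adjusted p = 0.0018).

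**Figure D5:**
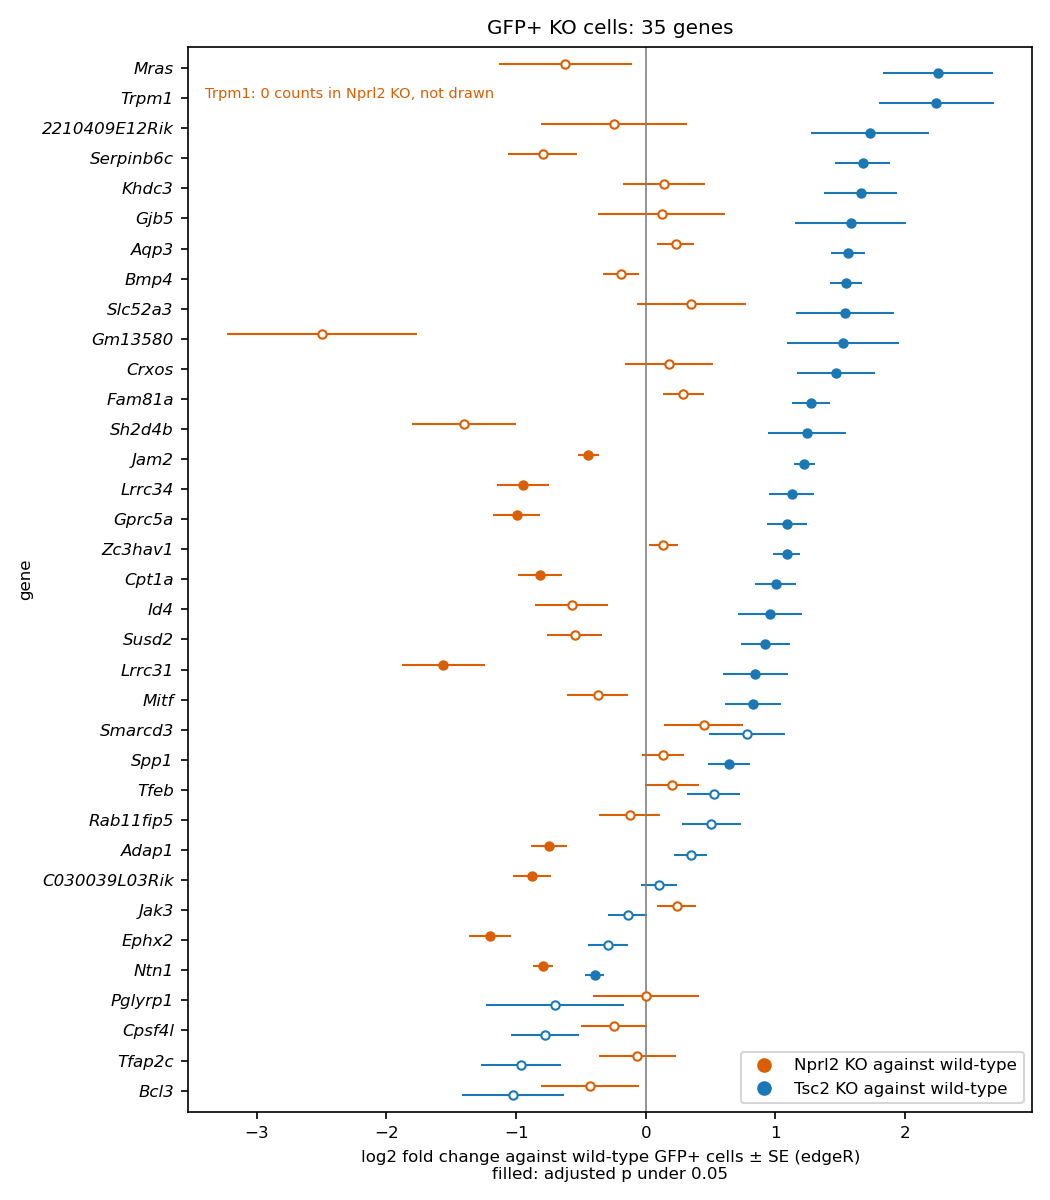
Log2 fold change against wild-type GFP+ cells with its SE for *Nprl2* KO (orange) and *Tsc2* KO (blue) and 35 of the 36 genes tested, ordered by the *Tsc2* KO value, with filled points at an adjusted p under 0.05 from edgeR. Of the filled points, 23 lie to the right and 1 to the left of 0 in *Tsc2* KO, and 9 lie to the left in *Nprl2* KO, where *Trpm1* is called but not drawn.

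The rises took in each kind of gene, with fold changes more alike than the levels. Among the ligands, *Bmp4* was at 36.8 and 37.0 TPM in *Tsc2* KO against 11.9 and 12.8 TPM in wild-type (log2 fold change 1.55 ± 0.13 SE, edgeR adjusted p = 5.17e-06). *Spp1* was at 373 and 323 TPM against 244 and 189 TPM (log2 fold change 0.64 ± 0.16 SE, edgeR adjusted p = 0.0322). Of the junction and surface genes, *Gjb5*, *Jam2* and *Susd2* rose, with log2 fold changes of 1.58, 1.22 and 0.92 (all called by edgeR). *Jam2*, at 109 and 113 TPM against 49.96 and 42.78 TPM, had the smallest adjusted p of the 36 genes (1.22e-06 from edgeR). Of the 5 genes for transport and metabolism 4 rose, and *Aqp3* was at 43.7 and 52.7 TPM against 15.01 and 16.96 TPM (log2 fold change 1.56 ± 0.13 SE, edgeR adjusted p = 6.83e-06). *Cpt1a* was at 41.8 and 54.4 TPM against 20.9 and 26.1 TPM (log2 fold change 1.00 ± 0.16 SE, edgeR adjusted p = 0.00234). *Ephx2* was the exception, at 20.3 and 21.9 TPM against 23.4 and 27.1 TPM (edgeR adjusted p = 0.18).

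Transcription factors were split. *Crxos*, *Id4* and *Mitf* rose, with log2 fold changes of 1.47, 0.96 and 0.83 (edgeR adjusted p = 0.00334, 0.0119 and 0.0125). *Mitf* was at 3.24 and 3.55 TPM in *Tsc2* KO against 2.29 and 1.56 TPM in wild-type. The transcript that led at day 0 held at most 0.954% of *Mitf* in *Tsc2* KO, so this level was assigned almost wholly to other transcripts. *Tfeb* was at 7.22 and 9.37 TPM against 6.21 and 5.09 TPM, which did not pass (edgeR adjusted p = 0.0736). Their relative *Tfe3* was at 43.1 and 42.0 TPM against 88.9 and 90.8 TPM (log2 fold change -1.10 ± 0.08 SE, edgeR adjusted p = 1.81e-06). *Tfap2c* was at 21.8 and 25.1 TPM against 33.7 and 55.7 TPM and *Bcl3* at 1.39 and 1.04 TPM against 2.64 and 2.15 TPM (edgeR adjusted p = 0.085 and 0.0683). Both were below wild-type in each library without passing the test, as was *Cpsf4l*, a relative of a polyadenylation factor subunit, at 16.7 and 11.0 TPM against 27.3 and 17.6 TPM (edgeR adjusted p = 0.0528). *Jak3*, *Pglyrp1*, *Rab11fip5*, *Smarcd3*, *Adap1* and *C030039L03Rik* were not called by edgeR either. Of the 12 alternatives, 5 called *Adap1*, 3 *Rab11fip5* and 2 *Smarcd3*, the latter by limma among them (adjusted p = 0.0288, range over alternatives 0.0288 to 0.315). The lower levels of *Tfap2c* and *Cpsf4l* were each called by 4 alternatives, for *Tfap2c* by DESeq2 among them (adjusted p = 0.0272, range over alternatives 6.91e-17 to 0.218), that of *Bcl3* by 1, and the higher one of *Tfeb* by 2. *Ntn1* alone was lower, at 32.0 and 34.8 TPM (log2 fold change -0.39 ± 0.07 SE, edgeR adjusted p = 0.00193).

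Fibroblast markers did not move evenly with the genotypes, since their sum was 171 TPM in *Tsc2* KO library 1 and 53.2 TPM in library 2, against 134 and 190 TPM in wild-type and 143 and 144 TPM in *Nprl2* KO. Of the 10 markers tested, none was called in either KO by edgeR, DESeq2 or limma, nor at an unadjusted p under 0.05 in edgeR. Among the 6 general pluripotency markers, edgeR called decreases of *Lin28a*, *Sall4* and *Utf1* in *Tsc2* KO and of *Lin28a* in *Nprl2* KO. It called no increase of these markers in either KO. In *Tsc2* KO the number of decreases called was 3 with DESeq2 and 2 with limma. Over all genes tested edgeR called 14.2% lower in *Tsc2* KO and 3.65% lower in *Nprl2* KO. Markers of the 2-cell-like state, led by the Zscan4 genes, summed to 476 and 489 TPM in *Tsc2* KO and to between 567 and 951 TPM in the other genotypes. Of the 9 such markers tested, edgeR and DESeq2 each called 3 lower in *Tsc2* KO and limma 2. Their part in the differences of the 37 genes was not tested. Without *Tsc2* KO library 1 the number of genes called in *Tsc2* KO was 24 (22 higher), and without library 2 it was 17 (16 higher). Of the 25 calls, 15 held under every alternative fit. DESeq2 called 18 higher and 2 lower, without the rises of *2210409E12Rik*, *Gm13580*, *Id4*, *Lrrc31*, *Mitf* and *Sh2d4b*. With limma 23 were higher and 1 lower, without those of *2210409E12Rik* and *Mitf*. Among the genes named, the rises of *2210409E12Rik*, *Gjb5*, *Gm13580*, *Id4*, *Lrrc31*, *Mitf* and *Slc52a3* were not called without *Tsc2* KO library 2, and those of *Spp1* and *Lrrc31* were not called without library 1. Leaving out wild-type library 1 ended the calls of *Gjb5*, *Gm13580*, *Id4*, *Lrrc31* and *Sh2d4b*, and leaving out wild-type library 2 those of *2210409E12Rik*, *Gm13580*, *Mitf*, *Slc52a3* and *Spp1*, with adjusted p values of at most 0.22 under any alternative for these genes.

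Compared directly, *Tsc2* KO cells had more of 28 of the 36 genes (77.8%) than did *Nprl2* KO cells and less of none, against 17.5% higher and 16.6% lower of all genes tested, again in edgeR. At an unadjusted p under 0.05 in edgeR 2 were lower in *Tsc2* KO, with 1 called by DESeq2 and 0 by limma. The median log2 difference was 1.28, against -0.0068 over all genes. *Trpm1* was at least 19.6-fold higher in *Tsc2* KO, which had 44 and 88 estimated counts. The filter on low counts kept *Trpm1* and *Gm13580* through *Tsc2* KO, where they were high. *Gm13580* was at 8.34 and 11.9 TPM in *Tsc2* KO and at 0.455 and 0.668 TPM in *Nprl2* KO (edgeR adjusted p = 0.000233). *Mras* was at 27.0 and 22.4 TPM against 3.92 and 2.54 TPM (log2 difference 2.87 ± 0.44 SE, edgeR adjusted p = 0.00985), a call that did not hold without *Nprl2* KO library 2 (adjusted p = 0.0677, range over the edgeR, DESeq2 and limma alternatives 1.64e-80 to 0.0677, the lowest without the filter on low counts). *Sh2d4b* was at 7.22 and 6.76 TPM against 0.898 and 1.19 TPM (log2 difference 2.64 ± 0.34 SE, edgeR adjusted p = 0.000107). *Serpinb6c* was at 18.2 and 15.9 TPM against 3.16 and 2.75 TPM (log2 difference 2.47 ± 0.23 SE, edgeR adjusted p = 7.7e-06). *Lrrc31*, *Gprc5a* and *Lrrc34* followed, with log2 differences of 2.41, 2.08 and 2.07. *Ntn1*, lower than wild-type in both KOs, was higher in *Tsc2* KO than in *Nprl2* KO by 0.40 on the log2 scale (SE 0.08, adjusted p = 0.0015 from edgeR). The calls of *Gjb5* and *Slc52a3* were lost without either *Nprl2* KO library and without *Tsc2* KO library 2, that of *Rab11fip5* without *Nprl2* KO library 1 and without *Tsc2* KO library 2, and that of *2210409E12Rik* without *Nprl2* KO library 2, with adjusted p values of at most 0.281 for these genes. DESeq2 did not call the higher levels of *Crxos*, *Rab11fip5* and *Slc52a3*, and limma not those of *2210409E12Rik* and *Rab11fip5*. The 8 genes not called by edgeR were *Bcl3*, *Cpsf4l*, *Jak3*, *Pglyrp1*, *Smarcd3*, *Spp1*, *Tfap2c* and *Tfeb*, and *Spp1* was at 373 and 323 TPM against 264 and 207 TPM (edgeR adjusted p = 0.0563). *Spp1* was called higher in *Tsc2* KO in 8 of 12 alternatives, at log2 differences of 0.51 to 0.68, with an adjusted p of 0.000731 by DESeq2 (range over alternatives 2.04e-09 to 0.166). *Tfap2c* was called lower in *Tsc2* KO in 6 alternatives, *Cpsf4l* in 3 and *Jak3* in 1.

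The core naive genes that were left out by name are given beside these for comparison. Of 12 such genes, 7 were lower in *Nprl2* KO and 9 higher in *Tsc2* KO than in wild-type, with median log2 fold changes of -0.73 and 0.80, both by edgeR. Of 12 genes of the LIF and *Stat3* pathway, *Bcl3* among them, 1 (*Lifr*) was lower in *Nprl2* KO, and in *Tsc2* KO *Stat3* and *Jak1* were higher and *Il6st* and *Junb* lower. Of 11 genes of the serum response that were tested, edgeR called 2 (*Egr1* and *Srf*) lower in *Tsc2* KO, and DESeq2 and limma each called 1. *Egr1* was low throughout, at 0.397 and 0.367 TPM in *Tsc2* KO against 0.952 and 0.870 TPM in wild-type. In *Nprl2* KO none of the 11 was called by edgeR, DESeq2 or limma, with 1 at an unadjusted p under 0.05 in edgeR. Over all genes tested 3.65% were lower in *Nprl2* KO, and 14.9% were higher and 14.2% lower in *Tsc2* KO. The difference between the lists was not tested.

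The 37 genes lay on 15 chromosomes, with at most 5 on one chromosome (chromosome 7), and none of those tested was on chromosome 1, where the median gene was 0.37 higher in *Tsc2* KO on the log2 scale. RefSeq lists 35 as protein-coding, 1 as a lncRNA and 1 as a transcribed pseudogene.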

How the data were processed

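For each of 18 libraries the authors deposited estimated counts and TPM that kallisto gave for RefSeq transcripts (version 0.42.1 in the submitters' processing notes, which also name DESeq2 and mm10), and for the series a table of TPM per gene and library. TPM is scaled to the library total, and neither unit has any further normalization between libraries. The GFP+ libraries were made from sorted cells with a stranded mRNA kit (HiSeq2500, paired-end), and how the time-course libraries were made is not given in the sources used here. The authors' tables of log2 fold changes and p-values for each KO hold their own comparisons and were not used.

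The genes were chosen from the deposited TPM table by the rule given at the start. The members, their grouping by role, the gene lists and the motifs were chosen with earlier results of these data known. Estimated counts were summed per gene through RefSeq (33709 of 34079 transcripts) and GENCODE (196), and 174 transcripts were left out, which held between 1.65% and 3.57% of the counts. Gene sums of transcript TPM matched the deposited table within 1% for at least 99.8% of 24170 genes in each library. Counts were rounded and tested with edgeR 4.0.16 in R 4.3.3 (TMM, edgeR's filter on low counts, robust quasi-likelihood fit of all 6 GFP+ libraries, Benjamini-Hochberg adjustment over 13722 genes, threshold 0.05), after a test on simulated data. The SE was taken as the absolute log2 fold change over the root of the F statistic. Values given as at least N-fold set counts per library total of one group against 3 counts per library in the other, which covers counting error only. Reads shared by near-identical genes or transcripts were divided by kallisto.

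Alternatives were DESeq2 1.42.0, upper-quartile normalization, no filter, the 4 libraries of a comparison alone, the replicate number as a block, limma 3.58.1 on log2(TPM + 1), each library left out, and other limits of the rule. Genes named with values are the 15 with the highest day 0 mean, the 5 called with the largest fold change in each direction of each GFP+ comparison, the 3 on each side of the rule's limit and *Bcl3*, which is in a pathway list. Others were named after their values were seen. For 1 of the 37 genes, which stays in the counts and medians, values are not reported here, and it is left out of the plots that name genes.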

Additional observations from a re-analysis of the deposited data

How the results depend on the processing

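The number of genes chosen depended on the rule. With a day 0 minimum of 5 TPM it was 58, with a limit of 25% of day 0 it was 103, with 6.25% it was 17, and with each later library set against the lowest day 0 library 23. With a minimum of 20 TPM it was 26, after division by TMM factors 33, and without one replicate between 37 and 39. In *Nprl2* KO, 10 genes were called, between 9 and 14 in the other fits of all libraries, and between 3 and 11 without one library, the lowest numbers being 3 without *Nprl2* KO replicate 2 and 6 without wild-type replicate 2. In *Tsc2* KO the number was 25, between 20 and 32 in the other fits and between 17 and 26 without one library. Between the KOs it was 28, between 26 and 32, and between 24 and 30. No called gene changed direction under an alternative, and of 754 values of called genes under alternatives, 695 stayed past the threshold. Without the filter on low counts adjusted p values went as low as 9.65e-86 (*Jam2*, between the KOs), far below those of the other fits, and the cause was not tested.

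Replicate numbers 1 and 2 are shared by the genotypes, but the labels do not say what they mark. Deviations from the group means of same-numbered libraries correlated over genes at 0.40 (wild-type and *Nprl2* KO), 0.33 (wild-type and *Tsc2* KO) and 0.22 (the KOs). With a replicate block, 13 genes were lower in *Nprl2* KO, 32 were called in *Tsc2* KO (28 higher and 4 lower, the latter *Ntn1*, *Bcl3*, *Cpsf4l* and *Tfap2c*), and 32 differed between the KOs, with 29 higher and 3 lower in *Tsc2* KO.

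With 2 libraries a genotype, and at most 12 estimated counts in a wild-type library for *Trpm1*, *Gm13580* and *Ly6g6e*, small differences in these genes could not be seen. *Ly6g6e* was tested only without the filter on low counts and in limma.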
